A study of Mus musculus with 24 samples.

Results

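The early growth response (EGR) family and its NAB corepressors were followed across the hippocampi of mice with and without *Egr1*. The members are the transcription factor genes *Egr1*, *Egr2*, *Egr3* and *Egr4* and the corepressor genes *Nab1* and *Nab2*. They were chosen by name, as the paralogs of the deleted gene and the corepressors that bind EGR proteins, and make up 6 of the 36605 genes in the count table. All 6 passed the filter on low counts in every comparison, and the lowest count of a member in any mouse was 13.

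EGR proteins are zinc finger transcription factors that bind GC-rich sites, and their genes are immediate early genes, which synaptic activity and growth signals switch on through serum response factor, its ternary complex partners and CREB. In the hippocampus *Egr1* is best known as a marker of neuronal activity and for its part in lasting synaptic plasticity and memory. NAB1 and NAB2 bind EGR proteins and repress transcription at their targets, NAB2 by recruiting the NuRD chromatin remodelling complex through CHD4, and *Nab2* is itself known as a gene that EGR proteins induce, which closes a negative feedback loop.

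Hippocampal RNA of 24 adult mice was sequenced from non-stranded poly(A) libraries, 6 mice in each of 4 genotypes, 3 females and 3 males per genotype. Egr1 fNes Cre+ mice, called Egr1cKO, carried the floxed *Egr1* allele Egr1_tm1a_A04 (strain C57BL/6N-Egr1/Tcp) and the Cre transgene of B6.Cg-Tg(Nes-Cre)1Kln/J. Egr1 fNes Cre- mice, called floxed, carried that allele without Cre. Egr1 wtNes Cre+ mice, called Cre-only, had the transgene and wild-type *Egr1*. Egr1 wtNes Cre- mice, called wild-type, had neither. The nestin promoter that drives Cre works in neural progenitors, so deletion reaches neurons and the glia that share this origin, in the whole nervous system and from development on, and cells of other origin in the tissue would keep the gene. Total counts per library ran from 18025168 to 34955004 with a median of 22743950.5. The Egr1 wt mice carry lower animal numbers than the Egr1 f mice, in 2 ranges that do not meet. Comparisons across the lines therefore mix the allele with the range of numbers, which cannot be told apart, whereas Egr1cKO against floxed and Cre-only against wild-type each lie within 1 range. Within a range the genotypes also run in blocks. All floxed mice but male 1 have higher numbers than every Egr1cKO mouse, and all wild-type mice but male 1 and female 1 have higher numbers than every Cre-only mouse. What the order of numbers stands for is not given in the sources used here, and its part was not tested.

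The tissue label was compared with marker genes, in CPM, the count scaled by the TMM-adjusted library size, the unit of all levels given here. The 7 markers of hippocampal neurons, with *Zbtb20* the most abundant, summed to between 753 and 1630 CPM in the 24 mice, and none of them averaged under 1 CPM. A cell type label of endocrine had no counterpart in the 6 pituitary hormone and lineage markers, which summed to between 1.00 and 3.84 CPM. Of these, *Gh*, *Prl*, *Pomc*, *Cga* and *Pou1f1* averaged under 1 CPM, and *Tshb* was the most abundant. The samples are called hippocampus below.

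Loss of *Egr1* was measured first. *Egr1* (ENSMUSG00000038418) lies at chr18:34859823-34864984 on the plus strand of GRCm38. The 6 Egr1cKO mice had 4.86 CPM at the lowest, 8.18 CPM at the median and 10.2 CPM at the highest, and the floxed mice 67.0, 83.3 and 147 CPM. The lowest, median and highest levels were 47.7, 85.2 and 125 CPM in Cre-only mice and 63.8, 111 and 149 CPM in wild-type mice. Every Egr1cKO mouse stood below every other mouse, in females and in males, so that the level of the deleted gene set the libraries labelled Egr1cKO apart from the rest of the 24. Floxed, Cre-only and wild-type mice overlapped, so this level does not tell their labels apart. Against floxed mice *Egr1* fell by 3.56 on the log2 scale (95% interval −3.98 to −3.13, edgeR adjusted *p* = 4.23e-08), and the range over 22 alternative settings was −3.76 to −3.38. A gene was called when its fold change (FC) was at least 1.2 and its adjusted *p* at most 0.05 over all genes tested. *Egr1* was the 1 member of 6 called here, and 0.0174% of the 17265 genes tested were called.

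Some *Egr1* signal was left in Egr1cKO mice. The mean of 7.95 ± 1.93 CPM (SD, *n* = 6) was 8.51% of the floxed mean, and single mice held between 5.20% and 10.9% of it. These levels rested on 125 to 268 *Egr1* counts per Egr1cKO library, against 904 to 3677 in the other libraries. The Egr1cKO females had 10.2, 9.49 and 8.52 CPM and the Egr1cKO males 6.82, 7.83 and 4.86 CPM, so each female lay above each male. The lowest was Egr1cKO male 3, whose hippocampal neuron marker sum (753 CPM) was the lowest and whose striatum marker sum (84.2 CPM) was the highest of the 24 mice. With 3 mice against 3 an exact two-sided permutation test cannot go below *p* = 0.1, and *Egr1* reached that *p* = 0.1 with a log2 difference of 0.56, female over male. *Egr2* (1.25) and *Egr3* (0.47) gave the same exact *p* = 0.1, and *Egr4* (0.57, exact *p* = 0.2) and *Fos* (0.78, exact *p* = 0.5) also had higher female means, while *Nab1* was at 0.05 (exact *p* = 0.6) and *Nab2* at −0.21 (exact *p* = 0.3). In bulk tissue fewer cells that express a gene and less RNA per cell cannot be told apart, and gene totals do not say which exons the remaining reads came from.

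*Egr1* was also low against the other genotypes. Its log2 difference was −3.43 against Cre-only mice (95% interval −3.90 to −2.96, edgeR adjusted *p* = 4.91e-07), where *Egr1* was the 1 member of 6 called and 0.00585% of 17080 genes tested were called. That count of 1 gene was 255 without Cre-only male 2, 2 without Egr1cKO male 2, 310 in females alone and 29 by DESeq2. Against the 18 mice of the other 3 genotypes pooled it was −3.59 (edgeR adjusted *p* = 1.19e-11), with again 1 of 6 members called and 0.00543% of 18433 genes. There the count of 1 gene was 3, 8 and 215 without Egr1cKO males 1, 2 and 3, 150 in females alone and 45 by DESeq2. *Egr1* was called each time. These comparisons share the Egr1cKO mice. The interaction of floxP and Cre takes the Cre difference in Egr1 f mice minus the Cre difference in Egr1 wt mice, and is called at adjusted *p* of at most 0.05. For *Egr1* it was −3.22 (95% interval −3.85 to −2.59, edgeR adjusted *p* = 1.36e-06), again for 1 of 6 members, beside 0.00543% of genes tested, or 1 gene. DESeq2 called 258 genes there, and edgeR without a filter on low counts 1173.

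With *Egr1* lost, *Egr3* and *Egr4* made up nearly all the EGR message. Levels were divided by the summed exon length of each gene (4484 bases for *Egr1*, 3398 for *Egr2*, 4406 for *Egr3* and 2148 for *Egr4*) to compare genes with each other. On this scale of CPM per kilobase the floxed means were 34.1 for *Egr3*, 28.0 for *Egr4*, 20.8 for *Egr1*, 8.79 for *Nab2*, 7.77 for *Nab1* and 1.73 for *Egr2*. In Egr1cKO mice the means per kilobase were 39.1 for *Egr3*, 31.2 for *Egr4*, 7.67 for *Nab2*, 7.35 for *Nab1*, 3.00 for *Egr2* and 1.77 for *Egr1*. Between neighbours in these orders, the ranges over mice overlapped for *Egr3* and *Egr4* and for *Nab2* and *Nab1* in all 4 genotypes, for *Egr4* and *Egr1* in the 3 genotypes with intact *Egr1*, and for *Egr2* and *Egr1* in Egr1cKO mice. Within single mice *Egr3* nevertheless lay above *Egr4* in 6 of 6 Egr1cKO, 5 of 6 floxed, 6 of 6 Cre-only and 6 of 6 wild-type mice, and *Egr4* above *Egr1* in 5 of 6 floxed, 5 of 6 Cre-only and 6 of 6 wild-type mice. *Nab2* lay above *Nab1* in 3 of 6 Egr1cKO, 5 of 6 floxed, 5 of 6 Cre-only and 4 of 6 wild-type mice. The order was not tested. Mouse by mouse, the family order per kilobase was *Egr3*, *Egr4*, *Egr1*, *Egr2* in 4 of 6 floxed, 5 of 6 Cre-only and 6 of 6 wild-type mice, and 1 floxed mouse had *Egr1* first. It was *Egr3*, *Egr4*, *Egr2*, *Egr1* in 5 of 6 Egr1cKO mice.

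The share of each paralog in the summed EGR level per kilobase followed from this. *Egr1* held 2.38 ± 0.368% of the sum in Egr1cKO mice, 24.6 ± 7.26% in floxed, 24.9 ± 4.15% in Cre-only and 25.9 ± 2.55% in wild-type mice (mean ± SD, *n* = 6 each). *Egr3* held 52.6 ± 5.01% in Egr1cKO and 40.6 ± 6.25% in floxed mice, and *Egr4* 41.2 ± 4.31% and 32.8 ± 6.39%. *Egr2* was the smallest part outside Egr1cKO mice, with 3.83 ± 1.37% in Egr1cKO, 1.98 ± 0.727% in floxed, 1.82 ± 1.21% in Cre-only and 2.76 ± 0.777% in wild-type mice. A share must go up in some paralogs when another is removed, so the sums matter beside it. The sum of *Egr2*, *Egr3* and *Egr4* was 73.3 ± 18.3 CPM per kilobase in Egr1cKO, 63.8 ± 10.8 in floxed, 55.8 ± 7.41 in Cre-only and 68.1 ± 10.4 in wild-type mice, differences no larger than the spread of the Egr1cKO mice. With *Egr1* included the sums were 75.1 ± 18.6, 84.6 ± 11.5, 74.9 ± 13.5 and 92.3 ± 16.4. No test was made on these sums or shares.

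**Figure D1:**
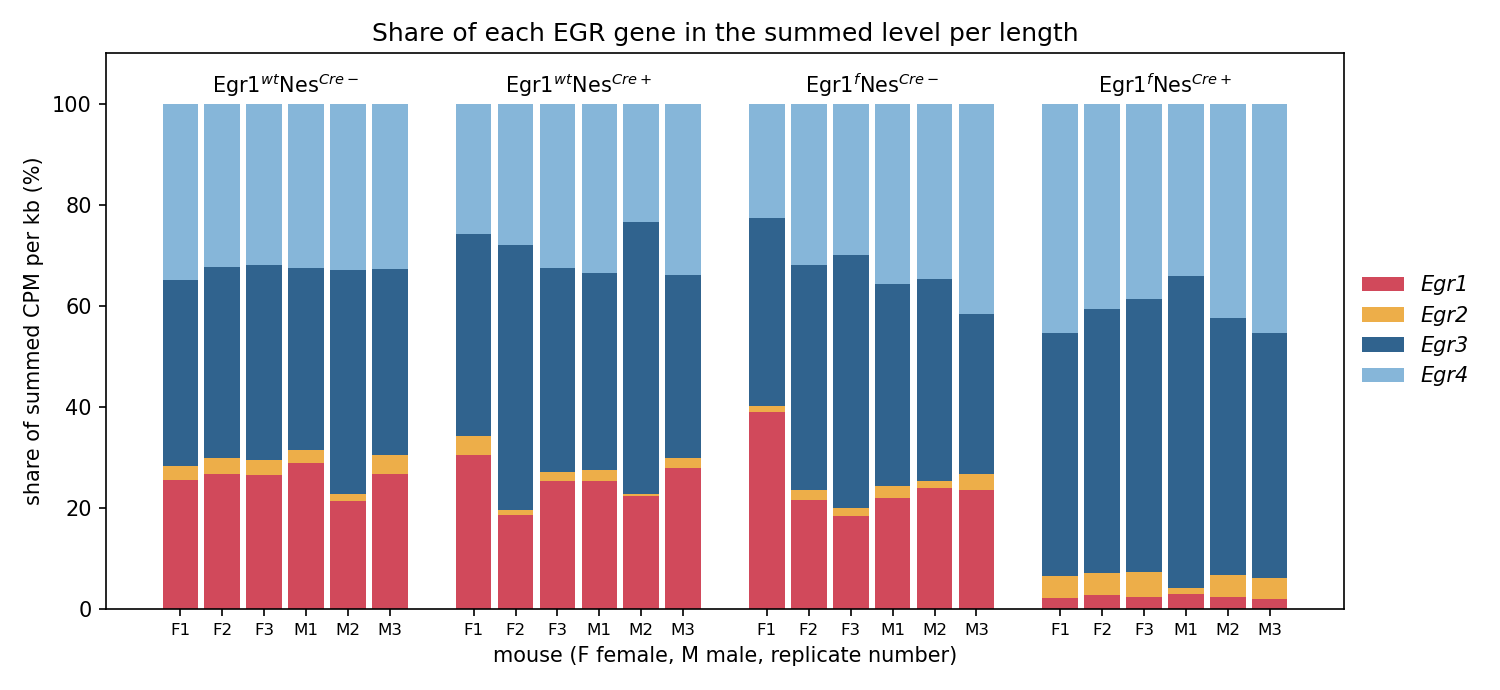
Each bar is 1 mouse (F females, M males) and shows the share (%) of *Egr1*, *Egr2*, *Egr3* and *Egr4* in their summed level in CPM per kilobase, by genotype. *Egr1* holds 1.89 to 2.88% in the 6 Egr1cKO mice and 18.3 to 38.9% in the 6 floxed mice.

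Among the paralogs of *Egr1*, *Egr2*, known from myelination and hindbrain patterning, was the least abundant and, relative to its mean, the most variable. *Egr2* (ENSMUSG00000037868) lies at chr10:67535475-67542188 on the plus strand. Its lowest, median and highest levels were 2.01, 11.0 and 14.7 CPM in Egr1cKO mice and 3.11, 5.54 and 11.0 CPM in floxed mice. In Cre-only mice they were 0.718, 4.64 and 12.2 CPM, and in wild-type mice 3.16, 9.65 and 11.0 CPM. The groups overlapped in every comparison: 5 of 6 Egr1cKO mice lay above the floxed median, Egr1cKO male 1 had the lowest level of its group, and floxed male 3 lay near the Egr1cKO median. The difference of Egr1cKO from floxed mice was 0.79 on the log2 scale (95% interval 0.03 to 1.55, FC 1.73), with an unadjusted *p* of 0.0423 and an edgeR adjusted *p* of 0.296, and was not called. Against Cre-only mice it was 1.03 (95% interval 0.01 to 2.05, FC 2.04, unadjusted *p* = 0.0487, edgeR adjusted *p* = 0.405), where 5 of 6 Egr1cKO mice lay above the Cre-only median. Against all 18 other mice it was 0.64 (−0.07 to 1.35, edgeR adjusted *p* = 0.375). Of all genes tested by edgeR, 16.2% had an unadjusted *p* under 0.05 against floxed mice, 12.3% against Cre-only mice and 15.1% against the 18. The last 2 counts, 2099 and 2786 genes, were 450 and 737 in males alone. Against Cre-only mice the count was 3474 without Egr1cKO male 3 and 3345 without Cre-only male 2.

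*Egr3* (ENSMUSG00000033730, chr14:70077203-70082614, plus strand), known for its need in muscle spindle development, had the highest mean per kilobase of the 6 genes in all 4 genotypes. Its lowest, median and highest levels were 123, 173 and 220.3 CPM in Egr1cKO mice and 118, 148 and 180.2 CPM in floxed mice. In Cre-only mice they were 115, 141 and 162 CPM, and in wild-type mice 131, 154 and 183 CPM. The 3 Egr1cKO females, with 220.3, 178 and 201 CPM, each lay above the 3 Egr1cKO males, with 144, 168 and 123 CPM (the last in male 3, the library low in hippocampal neuron markers), and the genotypes overlapped. The log2 difference of Egr1cKO mice was 0.20 from floxed mice (95% interval −0.06 to 0.46, edgeR adjusted *p* = 0.429) and 0.28 from Cre-only mice (0.03 to 0.54, unadjusted *p* = 0.0333, edgeR adjusted *p* = 0.382). From the 18 other mice it was 0.22 (0.03 to 0.41, unadjusted *p* = 0.0261, edgeR adjusted *p* = 0.274). None of these was called, and the first and second intervals left room for an *Egr3* level up to 0.46 or 0.54 log2 units higher.

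*Egr4* (ENSMUSG00000071341, chr6:85511121-85513589, minus strand), a paralog known from the maturation of male germ cells, followed *Egr3* in mean level per kilobase. Its lowest, median and highest levels were 38.7, 67.9 and 101 CPM in Egr1cKO mice and 40.8, 55.6 and 92.3 CPM in floxed mice. In Cre-only mice they were 32.9, 49.6 and 61.7 CPM, and in wild-type mice 47.6, 65.6 and 80.3 CPM. Of the Egr1cKO mice 5 of 6 lay above the floxed median, yet the highest floxed mouse, male 3, exceeded all Egr1cKO mice but female 1. The log2 difference was 0.16 from floxed mice (95% interval −0.25 to 0.57, edgeR adjusted *p* = 0.707) and 0.49 from Cre-only mice (0.08 to 0.89, unadjusted *p* = 0.0206, edgeR adjusted *p* = 0.357). From the 18 other mice it was 0.22 (−0.11 to 0.56, edgeR adjusted *p* = 0.530). In males alone the sign turned, to −0.35 from floxed mice and −0.14 from the 18.

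**Figure D2:**
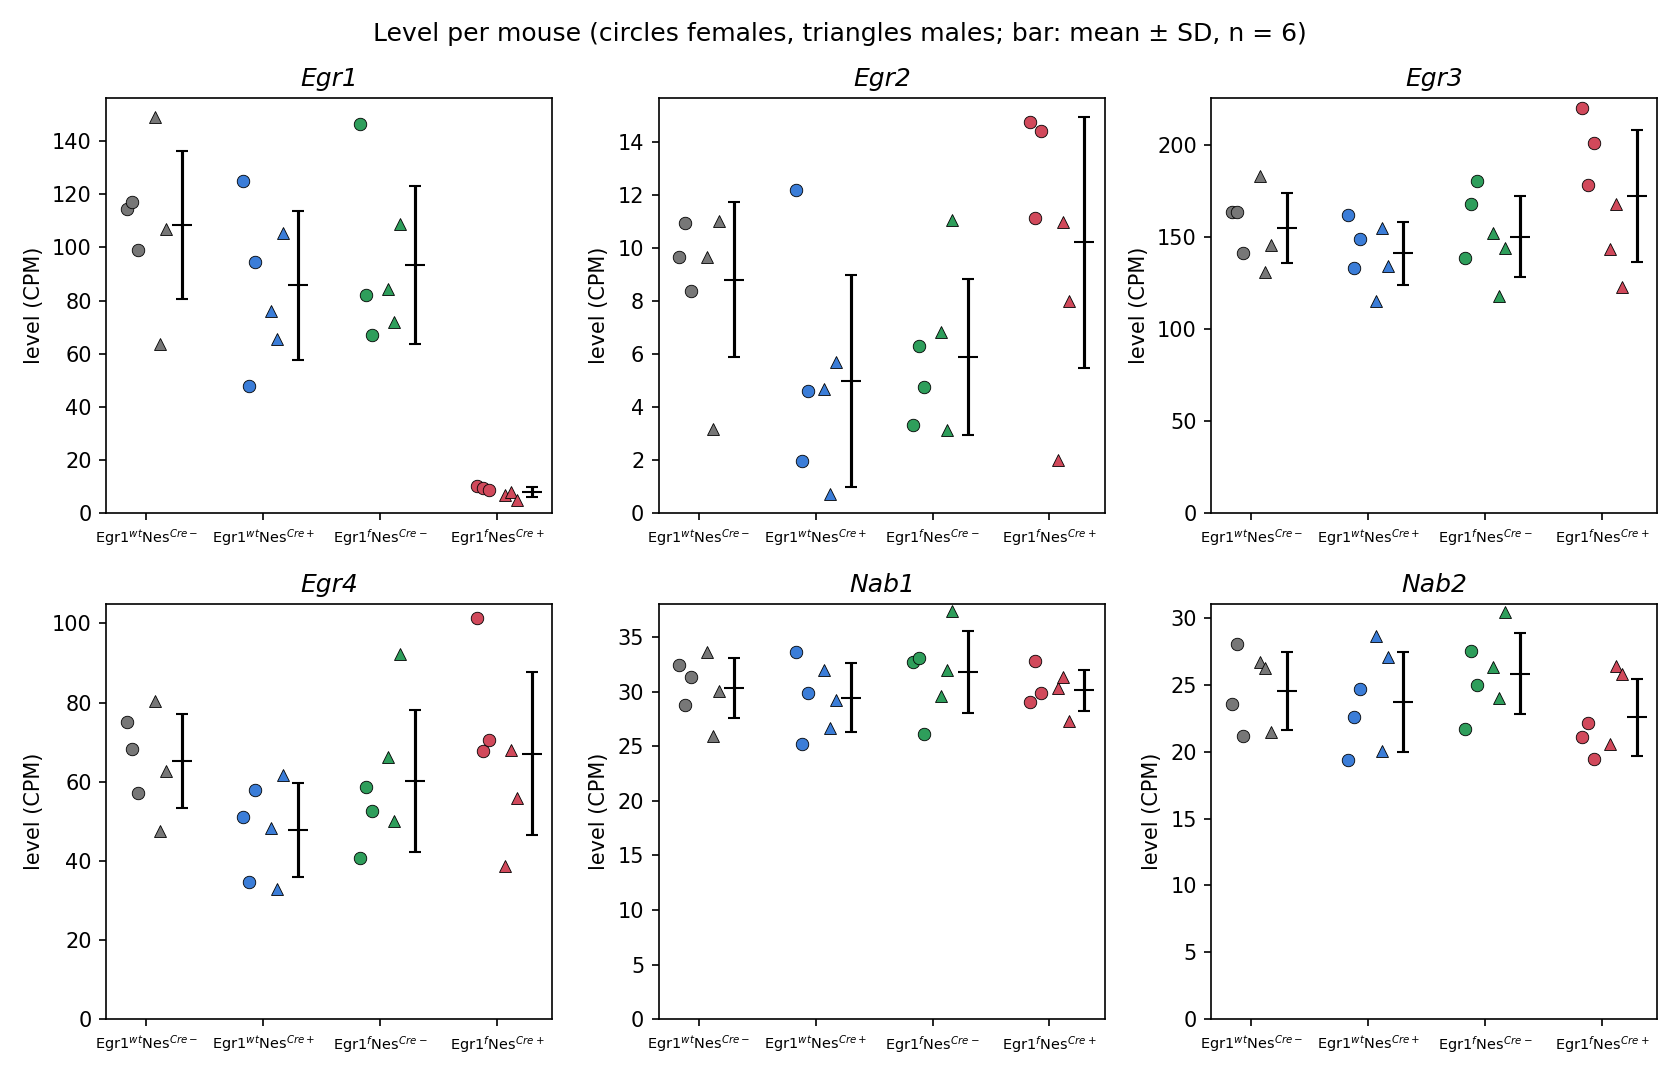
Each panel gives 1 gene as level (CPM, axis from 0) in the 4 genotypes, with females as circles, males as triangles, and a bar for mean ± SD (*n* = 6). The Egr1cKO mice lie below all others for *Egr1* (4.86 to 10.2 CPM) and overlap the other genotypes for the other 5 genes.

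The control comparisons give the variation of the paralogs with *Egr1* present. That of Cre-only with wild-type mice concerns the transgene without a floxed allele. There 0 of 6 members and 0% of 17167 genes tested were called by edgeR, 1095 genes had an unadjusted *p* under 0.05, and DESeq2 called 19 genes and 0 members. The edgeR count was 111 without Cre-only male 2, when 2831 genes had an unadjusted *p* under 0.05, and 2 without Cre-only male 3. The log2 differences of the 4 EGR genes were all below 0: −0.33 for *Egr1* (95% interval −0.76 to 0.09), −0.80 for *Egr2* (−1.71 to 0.10), −0.13 for *Egr3* (−0.32 to 0.07) and −0.44 for *Egr4* (−0.76 to −0.13). *Egr4* alone among the members stood out before adjustment (unadjusted *p* = 0.00890, edgeR adjusted *p* = 0.729). Of the 6 Cre-only mice 0 lay above the wild-type median of *Egr4*. The comparison of floxed with wild-type mice concerns the floxed allele without Cre. Again 0 of 6 members and 0% of 17393 genes were called by edgeR, beside 1781 genes at an unadjusted *p* under 0.05 (3091 without floxed male 1, 2872 without floxed female 1, 1157 without floxed male 3 and 1118 without floxed female 2) and 1 gene called by DESeq2, and 0 of 6 members had an unadjusted *p* under 0.05. The log2 differences there ran from −0.57 for *Egr2* (95% interval −1.18 to 0.04) to 0.07 for *Nab2* (−0.12 to 0.27).

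The log2 differences of *Egr2*, *Egr3* and *Egr4* were below 0 between Cre-only and wild-type mice and above 0 between Egr1cKO and floxed mice, so the interaction, which takes the first from the second, was larger than either. The interaction was 1.54 for *Egr2* (95% interval 0.29 to 2.80, unadjusted *p* = 0.0177, edgeR adjusted *p* = 0.179). It was 0.33 for *Egr3* (0.03 to 0.63, unadjusted *p* = 0.0322, edgeR adjusted *p* = 0.218) and 0.60 for *Egr4* (0.04 to 1.17, unadjusted *p* = 0.0373, edgeR adjusted *p* = 0.231). None of these 3 was called by edgeR, DESeq2 gave no adjusted *p* for *Egr2* and *Egr4* and 0.0996 for *Egr3*, and 3544 of the 18433 genes tested had an unadjusted *p* under 0.05. Across 12 alternative settings the adjusted *p* ran from 2.03e-09 to 0.269 for *Egr2*, from 0.0639 to 0.330 for *Egr3* and from 5.41e-05 to 0.350 for *Egr4*, with the lowest for *Egr2* and *Egr4* when no filter on low counts was used.

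**Figure D3:**
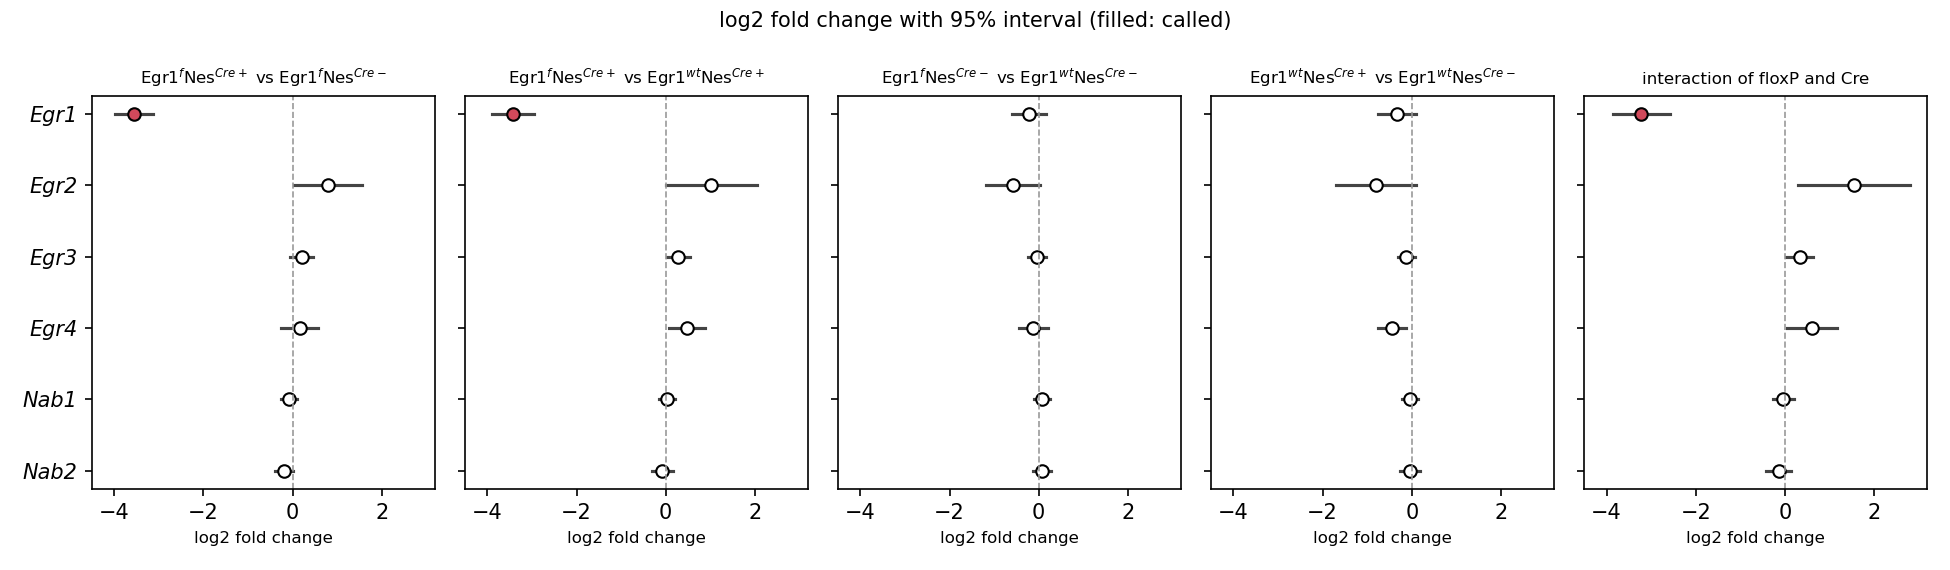
Each panel gives 1 comparison, with the log2 fold change (for the last panel the log2 interaction) of the 6 genes on the x axis, lines for the 95% interval, and filled points for called genes. *Egr1* is the 1 filled gene in the 2 Egr1cKO comparisons and the interaction (−3.56, −3.43 and −3.22), and no gene is filled in the 2 comparisons of controls.

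The sexes were also looked at apart. Among females *Egr2* was 14.7, 11.1 and 14.4 CPM in Egr1cKO and 3.31, 6.31 and 4.77 CPM in floxed mice, with no overlap. Among males it was 2.01, 11.0 and 8.004 CPM in Egr1cKO and 6.83, 3.11 and 11.0 CPM in floxed mice, with overlap throughout. *Egr4* likewise separated in females, 101, 67.7 and 70.5 CPM against 40.8, 58.6 and 52.7 CPM, but not in males, 38.7, 68.1 and 56.0 CPM against 66.2, 50.0 and 92.3 CPM. *Fos*, the activity gene outside the family, also separated in females, 19.0, 25.1 and 21.5 CPM against 14.0, 17.7 and 14.8 CPM. In a fit of females alone *Egr2* was called (log2 difference 1.48, edgeR adjusted *p* = 0.0145) and *Egr4* was not (0.65, edgeR adjusted *p* = 0.0673). That fit called 50 of 17359 genes, 0.288%, with *Egr1* and *Egr2* among them, and 3189 genes, 18.4%, had an unadjusted *p* under 0.05. Even with no overlap, an exact two-sided permutation test of 3 mice against 3 cannot go below *p* = 0.1. The share of all genes that separate in this way was not counted, so the separations named here are descriptions. Against the other controls *Egr2* was not called in females, with a log2 difference of 1.09 from Cre-only females (edgeR adjusted *p* = 0.266) and 0.96 from the females of all 3 other genotypes (edgeR adjusted *p* = 0.166). *Egr3* and *Egr4* of Egr1cKO females lay above all Cre-only females, with log2 differences of 0.43 (edgeR adjusted *p* = 0.0632) and 0.73 (edgeR adjusted *p* = 0.0853), and differed from the females of all 3 other genotypes by 0.37 (edgeR adjusted *p* = 0.0566) and 0.54 (edgeR adjusted *p* = 0.118), none of which was called. The floxed females had low levels beside wild-type females. Wild-type females had 9.66, 10.9 and 8.36 CPM of *Egr2* and 30.8, 27.3 and 27.3 CPM of *Fos*, each above every floxed female. Cre-only females had 12.2, 1.95 and 4.604 CPM of *Egr2* and 51.8, 9.96 and 8.55 CPM of *Fos*. For both genes the Cre-only females lay on both sides of the floxed females. In males alone 1 gene was called, *Egr1*, and *Egr2* differed by 0.01 (edgeR adjusted *p* = 0.999). Over the 22 alternative settings the adjusted *p* of *Egr2* ran from 0.0145 to 0.999 and that of *Egr4* from 0.0673 to 0.992.

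Whether the sexes differ in this was tested by the interaction of sex and Cre in the 12 Egr1 f mice, where 0 of 6 members and 0% of 18622 genes were called by edgeR, 785 genes had an unadjusted *p* under 0.05, and DESeq2 called 3 genes and 0 members. The edgeR count was 2 without Egr1cKO male 1, and 1344 genes had an unadjusted *p* under 0.05 without floxed female 1. The female minus male difference was 1.48 for *Egr2* (95% interval 0.09 to 2.87, unadjusted *p* = 0.0387) and 1.01 for *Egr4* (0.32 to 1.69, unadjusted *p* = 0.00663), each at an edgeR adjusted *p* of 0.999. It was 0.23 for *Egr3* (−0.17 to 0.63), 0.37 for *Egr1* (−0.39 to 1.13) and 1.07 for *Fos* (−0.19 to 2.33). The 12 activity-induced genes also had estimates above 0, from 0.16 for *Btg2* to 1.07 for *Fos*, with a median of 0.54 beside 0.00 for all genes and 0.95 for *Arc*. Of them 4 had an unadjusted *p* under 0.05, beside 4.22% of all genes, and 0 were called by edgeR or DESeq2. With the *Fos* level as a covariate, chosen after seeing the data, the estimates were 0.38 for *Egr2* (edgeR adjusted *p* = 0.862) and 0.60 for *Egr4* (edgeR adjusted *p* = 0.755). Over 17 alternative settings the adjusted *p* ran from 0.000484 to 1.00 for *Egr2* and from 2.10e-06 to 1.00 for *Egr4*, lowest without a filter on low counts.

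The corepressor genes varied little. *Nab1* (ENSMUSG00000002881, chr1:52457294-52500679, minus strand) had lowest, median and highest levels of 27.3, 30.1 and 32.9 CPM in Egr1cKO mice and 26.1, 32.4 and 37.4 CPM in floxed mice. In Cre-only mice they were 25.2, 29.6 and 33.6 CPM, and in wild-type mice 26.0, 30.7 and 33.6 CPM. All 4 genotypes overlapped, and 1 of 6 Egr1cKO mice lay above the floxed median while 4 of 6 lay above the Cre-only median. The log2 difference of Egr1cKO mice was −0.08 from floxed mice (95% interval −0.26 to 0.09, edgeR adjusted *p* = 0.647) and 0.03 from Cre-only mice (−0.15 to 0.21, edgeR adjusted *p* = 0.902). Without Cre-only female 2 the latter was −0.00610. Against the 18 other mice it was −0.02 (−0.15 to 0.12), and without Egr1cKO male 3 it was 0.00984.

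*Nab2*, the feedback corepressor that EGR proteins are known to induce, had no called difference either. *Nab2* (ENSMUSG00000025402) lies at chr10:127660918-127668568 on the minus strand. Its lowest, median and highest levels were 19.4, 21.6 and 26.4 CPM in Egr1cKO mice and 21.7, 25.6 and 30.5 CPM in floxed mice. In Cre-only mice they were 19.3, 23.6 and 28.7 CPM, and in wild-type mice 21.2, 24.9 and 28.1 CPM. The groups overlapped, with 2 of 6 Egr1cKO mice above the floxed median and 2 of 6 above the Cre-only median. The log2 difference from floxed mice was −0.19 (95% interval −0.40 to 0.01, FC 0.874, unadjusted *p* = 0.0636, edgeR adjusted *p* = 0.334), from Cre-only mice −0.07 (−0.31 to 0.17, edgeR adjusted *p* = 0.803) and from the 18 other mice −0.12 (−0.30 to 0.05, edgeR adjusted *p* = 0.497). The interaction of floxP and Cre was −0.14 (−0.43 to 0.15, edgeR adjusted *p* = 0.616). With *Egr1* at 8.51% of its floxed level, a *Nab2* level more than 0.40 log2 units below floxed mice lay outside the 95% interval, and between Cre-only and wild-type mice *Nab2* differed by −0.04 (−0.27 to 0.18), or by 0.00179 without Cre-only female 1. The span of *Nab2* overlaps genes of the opposite strand, 1668 bases with *Nemp1*, 1646 with *Gm16229* and 40 with *Stat6*. The libraries do not keep the strand, so reads of these genes and of *Nab2* cannot be told apart there.

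The longest run of bases shared between transcripts of 2 members was 46 for *Nab1* and *Nab2*, 44 for *Egr2* and *Egr3*, 38 for *Egr3* and *Egr4* and 29 for *Egr2* and *Egr4*. *Egr1* shared no run longer than 17 bases with *Egr2* or *Egr3*, and 14 with *Egr4*. The spans of the 4 EGR genes and of *Nab1* overlap no other gene of the annotation used here.

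Promoter sequence came from a table made from RefSeq (GRCm38.p6), from which entries of 4 of the 6 members were used, with 8 windows of 250 bases before a transcript start. Promoters of *Egr1* and *Egr3* were not analysed here. The motifs searched on both strands were the EGR site GCGNGGGCG, the CArG box bound by serum response factor, the cAMP response element TGACGTCA and the GC box GGGCGG, which can share bases with an EGR site. Of 32851 such windows of all genes, 4.70% held an EGR site, 1.47% a CArG box, 1.55% the cAMP response element and 32.7% a GC box. An *Egr2* window at chr10:67537619-67537868 (plus strand) held a CArG box that begins 72 bases before the start, and none of the other 3 motifs. The other *Egr2* windows differed: that at chr10:67535249-67535498 held no CArG box and 4 GC boxes, that at chr10:67537316-67537565 held a CArG box and 1 GC box, and those at chr10:67537620-67537869 and chr10:67537680-67537929 overlap the window shown and held a CArG box alone. The *Egr4* window at chr6:85513590-85513839 (minus strand) held none of the 4. The *Nab1* window at chr1:52500449-52500698 (minus strand) held EGR sites that begin 141, 109 and 38 bases before the start and 6 GC boxes, some of which overlap these sites. The *Nab2* window at chr10:127666704-127666953 (minus strand) held 1 GC box, which begins 245 bases before the start. It lies before the RefSeq start of *Nab2* and within the gene span given above, which reaches further upstream, to the start of another transcript whose promoter was not analysed here. The sequences are shown because *Egr2* and *Egr4* varied together over the mice (*r* = 0.841 over the 18 mice with intact *Egr1*) and the *Nab1* window holds 3 EGR sites. Capitals mark the CArG box in *Egr2* and the EGR sites in *Nab1*. A match describes letters in the window and no binding was measured.
Egr2: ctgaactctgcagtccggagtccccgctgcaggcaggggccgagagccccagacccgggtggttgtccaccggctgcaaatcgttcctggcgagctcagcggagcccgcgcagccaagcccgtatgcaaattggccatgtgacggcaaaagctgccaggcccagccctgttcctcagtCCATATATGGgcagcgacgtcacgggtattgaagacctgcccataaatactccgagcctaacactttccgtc
Egr4: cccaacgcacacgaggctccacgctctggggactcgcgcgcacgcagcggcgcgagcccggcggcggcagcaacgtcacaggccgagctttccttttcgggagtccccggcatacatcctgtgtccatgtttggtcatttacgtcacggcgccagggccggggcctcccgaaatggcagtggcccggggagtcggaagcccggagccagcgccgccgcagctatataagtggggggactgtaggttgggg
Nab1: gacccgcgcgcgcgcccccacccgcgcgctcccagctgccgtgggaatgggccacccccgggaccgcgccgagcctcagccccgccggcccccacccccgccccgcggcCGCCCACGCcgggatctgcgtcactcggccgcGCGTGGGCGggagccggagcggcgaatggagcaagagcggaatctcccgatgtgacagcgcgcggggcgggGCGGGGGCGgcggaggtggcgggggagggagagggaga

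Relation to *Fos*, an immediate early gene that shares its inducers with the EGR genes, was examined over the 18 mice with intact *Egr1*. *Fos* varied widely: its lowest, median and highest levels were 4.42, 16.9 and 51.8 CPM in Cre-only mice, 11.8, 16.3 and 34.9 CPM in floxed mice and 7.40, 27.3 and 36.8 CPM in wild-type mice. In Egr1cKO mice they were 4.76, 20.3 and 26.3 CPM, and the log2 difference from floxed mice was −0.06 (95% interval −0.71 to 0.60, edgeR adjusted *p* = 0.945). Slopes on log2 *Fos* were fitted for all genes, and 1 of 6 members was called, *Egr2*, beside 0.067% of 17912 genes tested. *Egr2* rose by 0.92 log2 units per log2 unit of *Fos* (95% interval 0.68 to 1.17, edgeR adjusted *p* = 0.000180). The slopes of *Egr4* (0.28, 0.12 to 0.43, unadjusted *p* = 0.000990), *Egr1* (0.27, 0.08 to 0.45, unadjusted *p* = 0.00603) and *Nab1* (0.10, 0.02 to 0.17, unadjusted *p* = 0.0122) had edgeR adjusted *p* values of 0.240, 0.373 and 0.437. DESeq2 called 59 genes on this slope, *Egr2* and *Egr4* among them. *Egr3* (0.03, −0.06 to 0.12) and *Nab2* (0.03, −0.07 to 0.13) had slopes near 0, and that of *Nab2* was −0.02 without Cre-only male 2. Over 26 settings the adjusted *p* of *Egr2* ran from 2.27e-13 to 0.187 and the slope from 0.81 to 1.02. The highest adjusted *p* came from a fit with replicate numbers as blocks, in which *Egr2* was not called (slope 0.98).

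The same relation was read as a correlation of log2 levels, 42 relations in all for 6 members and 7 sets of mice. *Egr2* followed *Fos* most closely, with *r* = 0.891 and *rho* = 0.926 over 18 mice, each at the smallest *p* that 100000 permutations can give, 1e-05. *Egr4* had *r* = 0.638 (permutation *p* = 0.00381) and *rho* = 0.643 (*p* = 0.00505), and *Egr1* had *r* = 0.585 (permutation *p* = 0.00978) and *rho* = 0.631 (*p* = 0.00616). *Nab1* had *r* = 0.596 (permutation *p* = 0.00929) and *rho* = 0.507 (*p* = 0.0333). For *Egr3*, the most abundant paralog per kilobase, the relation was weak (*r* = 0.156, permutation *p* = 0.538, *rho* = 0.226, *p* = 0.368), as it was for *Nab2* (*r* = 0.114, permutation *p* = 0.652, *rho* = 0.0857, *p* = 0.736). The *p* values of these correlations are not adjusted, and the adjusted values are those of the slopes. Without the 2 mice farthest from the median *Fos* level, Cre-only male 2 and wild-type male 2, *r* was 0.831 for *Egr2* (permutation *p* = 5.00e-05). It was 0.479 for *Egr4* (permutation *p* = 0.0611), 0.469 for *Egr1* (*p* = 0.0668), 0.433 for *Nab1* (*p* = 0.0932), 0.167 for *Egr3* (*p* = 0.534) and −0.0815 for *Nab2* (*p* = 0.761). Without them *rho* was 0.909 for *Egr2* (permutation *p* = 1e-05), 0.509 for *Egr4* (*p* = 0.0474), 0.491 for *Egr1* (*p* = 0.0554) and 0.332 for *Nab1* (*p* = 0.208). The slopes without them were 0.24 for *Egr4*, 0.23 for *Egr1* and 0.09 for *Nab1*, close to those of all 18 mice, while the *p* of *r* was above 0.05 for these 3 genes. The relation of *Egr2* held without the 2 mice.

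Within the 12 Egr1 wt mice, of 1 range of numbers, *r* with *Fos* was 0.882 for *Egr2* (permutation *p* = 0.000210), 0.714 for *Nab1* (*p* = 0.0105), 0.674 for *Egr1* (*p* = 0.0160) and 0.598 for *Egr4* (*p* = 0.0398). There it was 0.153 for *Egr3* (permutation *p* = 0.633) and −0.0315 for *Nab2* (permutation *p* = 0.922). In the 6 floxed mice, the intact mice of the other range, the exact permutation test gave *r* = 0.958 for *Egr2* (*p* = 0.00139), 0.924 for *Egr4* (*p* = 0.00833), 0.833 for *Nab2* (*p* = 0.0389), 0.475 for *Nab1* (*p* = 0.340) and 0.236 for *Egr1* (*p* = 0.647). *Egr2* thus followed *Fos* in both ranges. Within the 6 Egr1cKO mice *Egr2* had *r* = 0.875 (exact permutation *p* = 0.133) and *rho* = 0.2 (exact *p* = 0.714), where Egr1cKO male 1 has the lowest value of both genes.

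**Figure D4:**
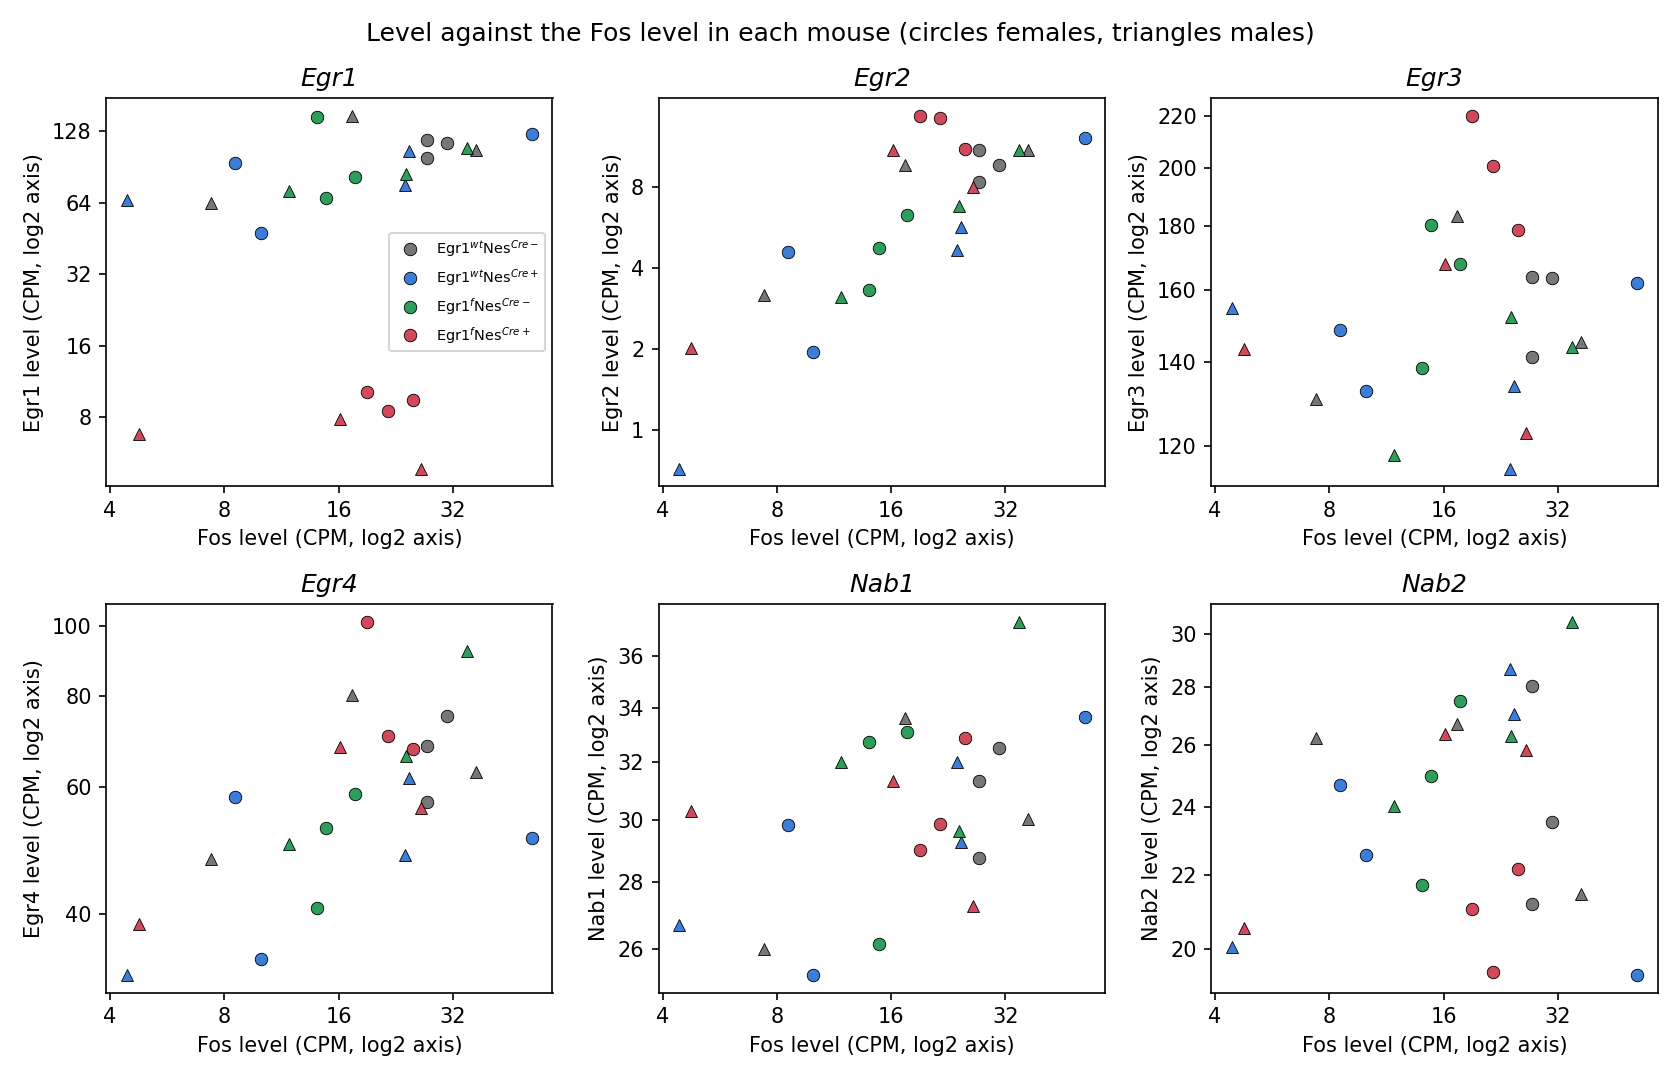
Each panel plots the level of 1 gene against the level of *Fos* (both CPM, log2 axes), with colours for genotype, circles for females and triangles for males. *Egr2* rises with *Fos* over the 18 mice with intact *Egr1* (*r* = 0.891), with weaker relations for *Egr3* (*r* = 0.156) and *Nab2* (*r* = 0.114).

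Set against the line of the 18 mice on *Fos*, Egr1cKO mice can be placed at their own *Fos* level. For *Egr2* 6 of 6 Egr1cKO mice lay above the line, by 0.02 to 1.36 log2 units and 0.80 on average, where the 18 mice scattered about it with a residual SD of 0.48. For *Egr3* 5 of 6 lay above it (mean 0.20, residual SD 0.19) and for *Egr4* 4 of 6 (mean 0.24, residual SD 0.31). For *Nab2* 2 of 6 lay above it (mean −0.13, residual SD 0.19), and for *Nab1* 3 of 6. For *Egr1* 0 of 6 did (mean −3.52, residual SD 0.37). The distances from the line are a description with no test, and in it the Egr1cKO mice are of the range of numbers that holds the floxed mice only. In fits with the *Fos* level as a covariate *Egr2* was not called against the 18 mice (edgeR adjusted *p* = 0.155) or Cre-only mice (edgeR adjusted *p* = 0.200). Each of these 2 fits called 1 gene, *Egr1*. Against floxed mice such a fit called 3 genes, of which 1 was a member, *Egr1*.

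Among the members themselves the closest pair over the 18 mice was *Egr2* and *Egr4* (*r* = 0.841). *Egr1* went with *Nab1* (*r* = 0.691), *Egr2* (0.688) and *Egr4* (0.589), and less with *Egr3* (0.360). *Egr1* and its feedback corepressor *Nab2* had *r* = 0.00436 across mice, while *Nab2* went with *Egr4* at *r* = 0.560, *Egr2* at 0.244, *Nab1* at 0.201 and *Egr3* at −0.0522. *Nab1* went with *Egr2* at *r* = 0.6002, *Egr4* at 0.593 and *Egr3* at 0.0531. These are descriptions over 18 mice that share genotype groups, without *p* values.

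Over all 19742 genes and the same 18 mice, the genes most like each member in log2 level were also listed. For *Egr2* they were *Nr4a1* (*r* = 0.954), *Arc* (0.945), *1700016P03Rik* (0.926), *Junb* (0.914) and *Fos* (0.894), mostly immediate early genes. For *Egr4* they were *Egr2* (0.841), *Arc* (0.821), *Junb* (0.784), *Per1* (0.779) and *Nr4a1* (0.775). For *Egr1* they were *Dusp6* (0.848), which encodes a phosphatase of ERK, *Midn* (0.820), *Gm15518* (0.813), *9330159M07Rik* (0.757) and *Arc* (0.753). *Egr3* was closest to *Lsmem1* (0.776), *Gramd1b* (0.771), *Fam78a* (0.758), *Homer1* (0.739) and *Nptx2* (0.735), the last 2 encoding synaptic proteins. *Nab1* was closest to *Pspn* (0.848), *Psat1* (0.843), *Mapk12* (0.787), *Gpr1* (0.785) and *Fkbp10* (0.782). *Nab2* was closest to *Arf1* (0.902), *Npdc1* (0.890), *Napa* (0.886), *Ppp1r1a* (0.880) and *Selenos* (0.870), so the lists of *Egr3*, *Nab1* and *Nab2* held none of the genes listed for *Egr2*.

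The wider pathway was followed through lists of genes. For Egr1cKO against floxed mice edgeR and DESeq2 each called 0 genes of the 6 lists in either direction, the median log2 difference of all genes tested was −0.01, and 16.2% of them had an unadjusted *p* under 0.05, the share to read the counts of the lists against. That share, 2794 genes, varied with the mice included: 1775 genes without floxed male 3, 1858 without floxed female 2, 4202 without Egr1cKO male 3 and 535 in males alone had an unadjusted *p* under 0.05. Of the 11 inducers of EGR genes 4 had an unadjusted *p* under 0.05 (median 0.11), among them serum response factor, *Srf* (0.19, unadjusted *p* = 0.0339). Of the 11 NAB partners and NuRD subunits 3 did (median −0.05), with the histone deacetylase gene *Hdac1* lowest (−0.28, edgeR adjusted *p* = 0.250) and *Mta2* at −0.24 (edgeR adjusted *p* = 0.240). Of the 5 EGR cofactors and modifiers 2 did (median 0.25), with the demethylase gene *Tet1* highest (0.28) and the acetyltransferase gene *Ep300* also at 0.28 (edgeR adjusted *p* = 0.260). Of the 4 other zinc finger factors of GC-rich sites 3 were tested, *Wt1* being under the filter on low counts, and 1 had an unadjusted *p* under 0.05 (median 0.15). Of the 8 genes described as EGR1 targets 2 did (median 0.10, from −0.07 for *Dlg4* to 0.35 for *Tgfb1*), with *Cdk5r1* at 0.19 (unadjusted *p* = 0.00421). Of the 12 activity-induced genes 1 did (median 0.02, from −0.21 for *Ier2* to 0.31 for *Fosb*).

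In the interaction of floxP and Cre edgeR again called 0 genes of these lists, and DESeq2 called *Mrtfb* among the inducers and *Ep300* among the cofactors. DESeq2 gave an adjusted *p* for 7 of the 11 inducers, 8 of the 11 NAB partners and NuRD subunits, 3 of the 5 cofactors, 0 of the 3 zinc finger factors, 4 of the 12 activity-induced genes and 7 of the 8 described targets. The medians were 0.13 for the inducers, −0.04 for the NAB partners and NuRD subunits, 0.30 for the cofactors, 0.24 for the zinc finger factors, 0.26 for the activity-induced genes and 0.20 for the described targets, beside −0.02 for all genes tested. At an unadjusted *p* under 0.05 there were 4, 4, 2, 1, 1 and 3 genes, beside 19.2% of all genes tested. In Cre-only against wild-type mice the medians in the same order were −0.01, −0.01, −0.01, −0.08, −0.21 and −0.02, beside 0.01 for all genes, and both tools called 0 of these genes.

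On the *Fos* slope 0.067% of all genes tested were called and 7.91%, 1417 genes, had an unadjusted *p* under 0.05, or 822 genes without Cre-only female 1. Of the 11 activity-induced genes tested 7 were called, all upward: *Dusp1* (0.73), *Npas4* (0.88), *Nr4a1* (0.49), *Ier2* (0.70), *Junb* (0.48), *Arc* (0.55) and *Btg2* (0.54). The median slope of that list was 0.49 against 0.00 for all genes. The *Egr2* slope of 0.92 lay above the estimates of these 7 called genes, with *Npas4* next at 0.88. These differences were not tested, and the *Egr2* slope was 0.81 without Cre-only male 2. Of the described EGR1 targets 1 was called, *Arc*, which is in both lists, and 0 genes were called by edgeR among the 11 inducers (2 at an unadjusted *p* under 0.05), the 11 NAB partners and NuRD subunits (1), the 5 cofactors (0) and the 3 zinc finger factors tested (0), where DESeq2 called 1, the inducer *Mrtfa*. The other genes called were *Ccn1*, *1700016P03Rik* and *Trib1* upward and *Tspan18* downward (−0.26).

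Markers of cell types also moved with *Fos* over these 18 mice before adjustment. Of the 4 choroid plexus markers 3 had an unadjusted *p* under 0.05 and 0 were called by edgeR or DESeq2, with a median slope of 1.00 and the steepest for *Ttr* (1.29, edgeR adjusted *p* = 0.498). Of the 7 markers of hippocampal neurons 4 had an unadjusted *p* under 0.05 and 0 were called by edgeR (median slope −0.14), and DESeq2 called *Prox1*, a marker of dentate granule cells (−0.21, edgeR adjusted *p* = 0.218). Cre-only female 1 had both the highest *Fos* level, 51.8 CPM, and the highest choroid plexus sum, 2002 CPM. Without this mouse, left out after seeing the data, the slope of *Egr2* was 0.97 (edgeR adjusted *p* = 0.000553). The part of the markers in the *Fos* slopes was not tested otherwise.

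Cell makeup was read from marker sums beside the Egr1cKO result. The other genes called by edgeR in Egr1cKO against floxed mice were *Aqp4*, the water channel of astrocytes (0.82, edgeR adjusted *p* = 0.00507), and *Tnc*, which encodes tenascin C (1.05, edgeR adjusted *p* = 0.0112). The mean level of *Aqp4* was 239 CPM in Egr1cKO, 135 in floxed, 197 in Cre-only and 149 in wild-type mice. Its log2 difference was 0.41 between Cre-only and wild-type mice (edgeR adjusted *p* = 0.729) and 0.28 between Egr1cKO and Cre-only mice (edgeR adjusted *p* = 0.351), and neither was called. The count of 3, 72 by DESeq2, was 5 without floxed male 1 and 8 without Egr1cKO male 2. *Aqp4* was 1 of 4 astrocyte markers called, none was near 0 and *Slc1a3* was the most abundant. The summed astrocyte level was 1136, 1451 and 1537 CPM at the lowest, median and highest in Egr1cKO mice and 971, 1187 and 1302 CPM in floxed mice. The 4 oligodendrocyte markers, with *Mbp* the most abundant and 0 called by edgeR or DESeq2 (2 at an unadjusted *p* under 0.05), summed to 2658, 3461 and 3788 CPM in Egr1cKO and 3234, 4161 and 4761 CPM in floxed mice. The 4 neuron markers, with *Camk2a* the most abundant and 0 called by either tool (1 at an unadjusted *p* under 0.05), summed to 7306, 8488 and 9200.0 CPM in Egr1cKO and 7282, 7800.3 and 8803 CPM in floxed mice. The 5 markers of meninges and fibroblasts, with *Dcn* the most abundant and *Igf2* under 1 CPM, had a median log2 difference of 0.66, 3 at an unadjusted *p* under 0.05, 0 called by edgeR and *Col1a2* called by DESeq2 (0.74, edgeR adjusted *p* = 0.240). They summed to 32.9, 63.1 and 79.2 CPM in Egr1cKO and 39.1, 48.0 and 54.7 CPM in floxed mice. The 6 microglia markers, with *Csf1r* the most abundant and 0 called by either tool (2 at an unadjusted *p* under 0.05), summed to 237, 245 and 280.3 CPM against 208, 228 and 242 CPM. The 5 markers of endothelium, with *Flt1* the most abundant and 0 called by either tool (1 at an unadjusted *p* under 0.05), summed to 134, 149 and 157 CPM against 105, 130 and 142 CPM. Of the markers of hippocampal neurons 1 of 7, of interneurons 2 of 4, of blood 1 of 3 and of striatum 0 of 4 had an unadjusted *p* under 0.05, and 0 were called by either tool. All these sums overlapped between the genotypes, and their part in the levels of the EGR and NAB genes was not tested. Choroid plexus markers, with *Ttr* the most abundant, ranged from 27.2 to 2002 CPM over the 24 mice and from 32.8 to 42.9 CPM in wild-type mice. *Ttr* differed by 5.20 on the log2 scale between Cre-only and wild-type mice (edgeR adjusted *p* = 0.238), by 4.78 between floxed and wild-type mice (edgeR adjusted *p* = 0.483) and by −6.20 in the floxP by Cre interaction (edgeR adjusted *p* = 0.150), and DESeq2 called the first and the last. Mice of 1 genotype differed widely: *Ttr* was at 1907 CPM in Cre-only female 1, 290 CPM in Cre-only male 3 and 21.8 to 45.4 CPM in the other Cre-only mice, at 742 and 963 CPM in floxed males 2 and 3, at 20.8 CPM in floxed male 1, at 8.45 to 12.2 CPM in floxed females, at 1030.2 CPM in Egr1cKO male 2, at 9.64 to 35.6 CPM in the other Egr1cKO mice and at 6.35 to 12.5 CPM in wild-type mice. DESeq2 also called the astrocyte marker *Gfap* between Cre-only and wild-type mice (0.33, edgeR adjusted *p* = 0.238), and in the floxP by Cre interaction *Wfs1* of hippocampal neurons (0.57, edgeR adjusted *p* = 0.150) and *Mbp* of oligodendrocytes (−0.61, edgeR adjusted *p* = 0.150). Their part was not tested either.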

How the data were processed

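Gene counts of 24 hippocampal libraries, deposited by the authors as whole numbers per gene, were used. Per the study's methods, paired-end 150 bp reads were trimmed with Trim Galore, mapped to mm10 and counted with STAR, and the submitters' processing notes name STAR 2.7.9, Trim Galore 3.8.2, FastQC and GRCm38. The study's methods give other versions of STAR and Trim Galore, and which were used was not settled here. The annotation used for counting is not given in the sources used here; gene places, exon lengths and overlaps came from GENCODE M21 on GRCm38, and promoters from RefSeq. Members and lists were chosen with earlier results of these data known. Columns were matched to samples by the animal number in the labels, with 0 unmatched.

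The 24 pairs of libraries of the same genotype and sex differed by more than sampling noise (chi-square per degree of freedom 5.04 to 42.0), and each library was kept as 1 mouse. Counts were filtered with filterByExpr (minimum count 10), scaled by TMM and tested with the quasi-likelihood F test of edgeR 4.0.16 in R 4.3.3, with Benjamini-Hochberg adjustment over all genes tested. Pairwise comparisons took the mice compared and no covariate. The floxP by Cre interaction took all 24 mice with sex, and the sex by Cre interaction the 12 Egr1 f mice. The *Fos* slope took log2 CPM with prior count 2 in the 18 mice with intact *Egr1*, leaving out *Fos* itself. The 95% intervals came from the F statistic. Permutation tests were two-sided, with 100000 draws or full enumeration for 6 mice (SciPy 1.17.1, NumPy 2.4.6, pandas 2.3.3, Python 3.11.15). Likeness was Pearson's *r* of log2(CPM + 1). At depths of 18025168 to 34955004 counts the members had at least 13 counts in every mouse. The fits were tested on simulated data, the outcome of which is not given here and on which no result rests.

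Genes named are the 6 members, *Fos*, genes of the lists that were called, extremes of some of the lists, and the 5 genes most like each member. Other list genes, and the called genes outside the lists, were picked after their values were seen. Alternatives were DESeq2 1.42.0, edgeR with the scaling of DESeq2, all genes kept without a filter, replicate block, sex or *Fos* covariates, a shared fit of all mice, each sex alone, each mouse left out, and other lengths for the shares.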

Additional observations from a re-analysis of the deposited data

Results flagged for a closer look

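Groups of 6 mice were looked at for a mouse apart from the rest, by the gap to its nearest neighbour over the range of the group and the 95% critical value of Dixon's test. Chance alone sets a mouse apart in about 1 in 20 groups, and 4 of 48 groups had one. *Egr2* in wild-type mice had its lowest level in male 2, at 3.16 CPM (ratio 0.664). The *Egr1* share of the EGR sum in floxed mice was highest in female 1, at 38.9% (0.727). The *Egr2* share in Egr1cKO mice was lowest in male 1, at 1.12% (0.765). The *Egr3* share in wild-type mice was highest in male 2, at 44.3% (0.706), the mouse with the lowest *Egr2* and *Fos* levels of its genotype.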

How the results depend on the processing

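Of the values for single genes 953 kept direction and side of the threshold, 7 passed it only under an alternative, 15 lost it and 21 changed sign. Of the counts and shares 294 stayed within 1.5 times (counts) or 1 SD (shares) of the value given and 56 moved further. *Egr1* was called in Egr1cKO mice under all settings run. The members' lowest count of 13 limits *Egr2* most. The causes were not tested, except where stated.

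Genes called by DESeq2 were 72 for Egr1cKO against floxed (edgeR 3), 19 for Cre-only against wild-type (0), 1 for floxed against wild-type (0), 29 for Egr1cKO against Cre-only (1), 45 for Egr1cKO against the 18 other mice (1), 258 for the floxP by Cre interaction (1), 3 for the sex interaction (0) and 59 for the *Fos* slope (12). DESeq2 called 2 members on the *Fos* slope, adding *Egr4* (adjusted *p* = 0.0366; range 0.0366 to 0.893 over 26 settings). It gave no adjusted *p* for *Egr2*, *Egr4*, *Nab1* and *Nab2* in the floxP by Cre interaction.

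Without a filter on low counts, edgeR called 9, 8 and 4 genes in the first 3 of these comparisons, 7 against the 18 mice, 1173 in the floxP by Cre interaction (3 members: *Egr1*, *Egr2* at adjusted *p* = 2.03e-09 and *Egr4* at 5.41e-05), 59 in the sex interaction (2 members: *Egr2* at 0.000484 and *Egr4* at 2.10e-06) and 59 on the *Fos* slope. In both interactions the prior degrees of freedom were then infinite, against 7.29 and 7.26 with the filter, so each gene took the trend of the dispersion and its own spread was not used. Over all settings these adjusted *p* ranged up to 0.269 and 0.350 (12 settings) and 1.00 for both (17 settings).

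With the replicate block, 9 genes were called for Egr1cKO against floxed, 3 against the 18 mice, 1 in the sex interaction and 6 on the *Fos* slope. There 0 members were called, *Egr2* having slope 0.98 and adjusted *p* = 0.187 (range 2.27e-13 to 0.187). The replicate block changed no other member's call. Replicate numbers gave no sign of paired mice: over 36 pairs with the same number the correlation of deviations ran from −0.146 to 0.150 (median −0.0302, 5 over 0.1), and 16 of 72 times a mouse was most like its own number.

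A shared fit of all 24 mice called 6 genes against floxed and 5 against the 18, sex as a covariate 3 against the 18, the *Fos* covariate (chosen after seeing the data) 1 in the sex interaction, and genotype and sex as covariates 22 on the *Fos* slope. In females alone 50 genes, 2 of them members (*Egr1* and *Egr2*), were called for Egr1cKO against floxed, 310 against Cre-only, 150 against the 18, and 2 for floxed against wild-type; in males 1 against floxed. *Egr2* had 1.48 in females (adjusted *p* = 0.0145) and 0.01 in males (0.999), which are the ends of its range.

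Leaving out each mouse gave 2 to 8 genes for Egr1cKO against floxed (5 without floxed male 1, 8 without Egr1cKO male 2), 0 to 111 for Cre-only against wild-type (2 without Cre-only male 3, 111 without Cre-only male 2), 1 to 255 for Egr1cKO against Cre-only (2 without Egr1cKO male 2, 255 without Cre-only male 2), 1 to 215 against the 18 (3, 8 and 215 without Egr1cKO males 1, 2 and 3) and 0 to 2 in the sex interaction (2 without Egr1cKO male 1). No member's call changed. The *Fos* slope of *Egr2* with each of 18 mice left out, chosen after seeing the data, was 0.81 to 1.02.

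Signs changed as follows. *Egr4* in males was −0.35 against floxed, −0.14 against the 18 mice and 0.12 for floxed against wild-type. For Cre-only against wild-type, *Nab1* was 0.00931 with the *Fos* covariate and *Nab2* 0.0193 in males. In females *Egr3* was 0.0560 and *Nab1* −0.00478 for floxed against wild-type, and *Nab1* 0.0146 against the 18 mice. The *Fos* slope of *Nab2* was −0.00347 in the 12 Egr1 wt mice and −0.00650 without the 2 farthest mice. With each mouse left out, *Nab2* ran from −0.11 to 0.00179 (Cre-only against wild-type), *Egr3* from −0.10 to 0.0156 (floxed against wild-type; above 0 without floxed male 2 or wild-type male 1), *Nab1* from −0.00610 to 0.0749 (Egr1cKO against Cre-only) and from −0.0425 to 0.00984 (against the 18), and the *Fos* slope of *Nab2* from −0.0200 to 0.0768. The *r* of *Nab2* with *Fos* was −0.0815 without the 2 farthest mice, −0.0315 in the 12 Egr1 wt and −0.515 in the wild-type mice, that of *Nab1* −0.124 in Egr1cKO and that of *Egr3* −0.116 in Cre-only mice.

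In CPM without length the *Egr1* share was 3.10% in Egr1cKO, 30.0% in floxed, 30.0% in Cre-only and 31.8% in wild-type mice. The *Egr3* share was 67.3, 48.8, 51.3 and 46.3% and the *Egr4* share 25.8, 19.4, 17.1 and 19.3% in Egr1cKO, floxed, Cre-only and wild-type mice. With the longest coding transcript as length *Egr4* held 31.4% in wild-type mice.

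Leaving out the 18 control mice 1 at a time against the Egr1cKO mice, and in the floxP by Cre interaction, was not run.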
